A study of Mus musculus with 10 samples.

Results

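The 31 genes described here encode the standing subunits of the proteasome in mouse bone marrow derived macrophages, which are primary macrophages grown from marrow cells. They are defined by gene name and not by a cut-off on a value: Psma1 to Psma7, Psmb1 to Psmb7, Psmc1 to Psmc6 and 11 Psmd genes. All 31 were among the 45318 gene rows of the deposited table, and all 31 passed the filter on low values, which 13171 genes passed. RNA of C57BL/6 macrophages was sequenced in 5 groups of 2 libraries. The groups were untreated WT cells, untreated Tlr4 -/- cells, WT and Tlr4 -/- cells after 6 h in a medium of 5% FBS and 2% BSA (called the control medium, as in the sample titles), and Tlr4 -/- cells after Poly(I:C), an RNA duplex made by synthesis that mimics viral RNA. The labels give neither the time in Poly(I:C) nor the serum and albumin of its medium, and for untreated cells no medium, so each response below is a difference from untreated cells or between 2 media. WT cells with Poly(I:C) were not analysed here. Nothing says that the libraries of a group came from separate animals or cultures, so p-values measure only the spread between these libraries, which may be technical.

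The proteasome is the protease that breaks down ubiquitin-tagged proteins. Its core is a barrel of stacked rings: alpha subunits form the outer rings and the gate, and beta subunits form the inner rings, where Psmb5 (β5), Psmb6 (β1) and Psmb7 (β2) carry the active sites. A regulatory particle caps the barrel, with a base of ATPases (Psmc genes) that unfold and feed in the substrate and a lid that removes the ubiquitin chain. In macrophages stimulated by interferon, Psmb8, Psmb9 and Psmb10 take the places of Psmb5, Psmb6 and Psmb7 in newly built immunoproteasomes, which favour peptides suited to MHC class I. The transcription factor Nfe2l1 (Nrf1) is known to raise the standing subunits together when proteasome activity is short.

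The 6 promoter windows printed here were chosen because their genes carry the contrasts in the results: Psmb5 and Psmb6 with the inducible counterpart Psmb8 and the inducible cap gene Psme1, and Psma5, the subunit with the largest difference after Poly(I:C), with Psma1, which passed in none of the comparisons. Each runs from 250 bases before to 50 bases after the RefSeq start (GRCm38.p6), 5′ to 3′ on the gene's strand. Capitals mark an antioxidant response element (TGACNNNGC, the kind of site that Nfe2l1 binds) in Psmb5 and Psmb6, a gamma-activated sequence (TTCNNNGAA) in Psmb8, an interferon-stimulated response element (GAAA, then 2 of any base, then GAAA, here on the other strand) in Psme1 and CCAAT boxes in Psma1. None of these 4 motifs was found in the Psma5 window, which therefore has no capitals.
Psmb5, chr14:54617946-54618245, minus strand: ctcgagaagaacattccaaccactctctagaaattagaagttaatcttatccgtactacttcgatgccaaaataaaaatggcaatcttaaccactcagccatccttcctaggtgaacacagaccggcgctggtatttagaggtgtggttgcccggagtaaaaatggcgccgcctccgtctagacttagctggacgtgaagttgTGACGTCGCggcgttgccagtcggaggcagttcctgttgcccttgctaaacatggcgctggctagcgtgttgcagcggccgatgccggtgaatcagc
Psmb6, chr11:70525107-70525406, plus strand: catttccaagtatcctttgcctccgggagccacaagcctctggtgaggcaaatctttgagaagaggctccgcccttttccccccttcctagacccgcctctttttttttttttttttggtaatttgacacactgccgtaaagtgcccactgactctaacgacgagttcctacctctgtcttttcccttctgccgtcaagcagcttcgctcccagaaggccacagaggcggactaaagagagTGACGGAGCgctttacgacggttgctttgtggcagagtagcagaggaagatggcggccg
Psmb8, chr17:34197945-34198244, plus strand: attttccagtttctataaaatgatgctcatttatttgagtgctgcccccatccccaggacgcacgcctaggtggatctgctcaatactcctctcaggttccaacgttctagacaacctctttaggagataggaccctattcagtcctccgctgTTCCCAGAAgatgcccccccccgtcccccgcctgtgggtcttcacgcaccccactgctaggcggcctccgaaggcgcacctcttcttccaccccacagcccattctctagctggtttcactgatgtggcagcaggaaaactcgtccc
Psme1, chr14:55578244-55578543, plus strand: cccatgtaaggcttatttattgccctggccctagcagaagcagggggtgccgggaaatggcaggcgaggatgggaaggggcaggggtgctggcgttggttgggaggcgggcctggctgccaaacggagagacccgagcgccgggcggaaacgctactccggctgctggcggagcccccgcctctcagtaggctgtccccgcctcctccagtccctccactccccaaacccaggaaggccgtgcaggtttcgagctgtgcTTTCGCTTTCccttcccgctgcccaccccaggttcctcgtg
Psma5, chr3:108256676-108256975, plus strand: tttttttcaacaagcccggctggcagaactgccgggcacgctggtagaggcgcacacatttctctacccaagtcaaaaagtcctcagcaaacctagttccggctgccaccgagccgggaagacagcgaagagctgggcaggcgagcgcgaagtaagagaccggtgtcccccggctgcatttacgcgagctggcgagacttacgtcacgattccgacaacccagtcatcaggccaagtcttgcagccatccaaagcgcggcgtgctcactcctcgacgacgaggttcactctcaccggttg
Psma1, chr7:114276067-114276366, minus strand: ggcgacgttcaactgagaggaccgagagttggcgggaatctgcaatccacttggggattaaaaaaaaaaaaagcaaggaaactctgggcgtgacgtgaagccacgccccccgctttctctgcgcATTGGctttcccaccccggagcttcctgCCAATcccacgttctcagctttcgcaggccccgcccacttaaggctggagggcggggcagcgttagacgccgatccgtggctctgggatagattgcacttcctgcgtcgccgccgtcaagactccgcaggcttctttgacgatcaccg

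A RefSeq window was matched for 25 of the 31 subunit genes (Psmb1, Psmb2, Psmb7, Psmc3, Psmd3 and Psmd7 had none in the table) and for all of Psmb8, Psmb9, Psmb10, Psme1 and Psme2. Both strands were searched. The antioxidant response element occurred in 4 of the 25 windows (Psmb5, Psmb6, Psmc6 and Psmd12), 16%, against 12.4% of all 32851 windows of this length. The letters CCGGAAG, bound by ETS factors, occurred in 10 windows, 40%, against 8.86% of all windows, and the GC box GGGCGG in 15, 60%, against 35.7%. CCAAT occurred in 40% of the subunit windows and 37.4% of all windows, close to each other. The interferon-stimulated response element was found in 2 windows, Psmb3 and Psmd4 (8%, against 3.44% of all), and the gamma-activated sequence in 1, Psmd2 (4%, against 8.3%). Of the 5 inducible genes, Psmb8 held the gamma-activated sequence, Psme1 the interferon-stimulated response element, and none the antioxidant response element or the ETS letters. A match is a description of letters, and the share over all windows includes genes that macrophages do not express.

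Facts of the whole series bear on every value. Tlr4, the targeted gene, was read in all libraries: at 60.1 and 69.1 CPM in untreated WT, 44.4 and 44.9 in untreated KO, 32.3 and 39 in WT control, 30.8 and 34.6 in KO control and 47.9 and 63.4 CPM in KO Poly(I:C) libraries. A single gene total cannot tell which exons were read, so WT and KO below mean libraries labelled so. The second fact is the scale. The deposited totals were 25.2 to 26.7 M units in untreated and KO control libraries but 41.1 to 51.7 M in KO Poly(I:C) and WT control libraries. The reads behind them were estimated at 18.3 to 56.5 M. CPM here is the deposited value divided by the library's total in M units and by its TMM factor, which sets the typical gene equal between libraries (1.16 to 1.23 in untreated and KO control, 0.853 and 0.814 in WT control, 0.717 and 0.704 in KO Poly(I:C)). A subunit that rose on this scale rose relative to the typical gene. As a share of all reads the 31 genes together lay between 0.340% and 0.422% in all libraries: 0.405% and 0.375% in untreated WT, 0.374% and 0.363% in untreated KO, 0.422% and 0.392% in WT control, 0.391% and 0.379% in KO control, and 0.370% and 0.340% in KO Poly(I:C) libraries.

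In WT cells the control medium was accompanied by higher levels of nearly the whole particle relative to the typical gene, in ring, base and lid subunits. Of the 31 subunits 27 were higher than in untreated WT cells, 0 were lower and 4 did not pass (limma on log2(CPM + 0.1), adjusted p under 0.05 over all genes). Over all genes 33.1% were called higher and 32.8% lower. The median log2 difference was 0.58 over the subunits and -0.01 over all genes, whose quartiles were -0.63 and 0.57. The summed level of the subunits was 3303 and 3164 CPM in the untreated WT libraries and 4951 and 4809 CPM in the WT control libraries. With scaling by library totals alone the direction of the group was lost: 9 subunits were higher and 6 lower with a median of 0.05, while all genes had a median of -0.52 and split into 2267 higher and 7689 lower instead of 4357 and 4315. The subunits' median less that of all genes was 0.59 with the TMM factors, 0.57 with totals alone, 0.59 with the deposited scaling (5158 genes higher and 3426 lower) and 0.57 in the rlog table. Here and below this distance is nearly fixed by construction, because a library factor shifts the log2 differences of all genes nearly alike. Its agreement between library scalings is thus no further support, and only the relative statement is made.

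**Figure D1:**
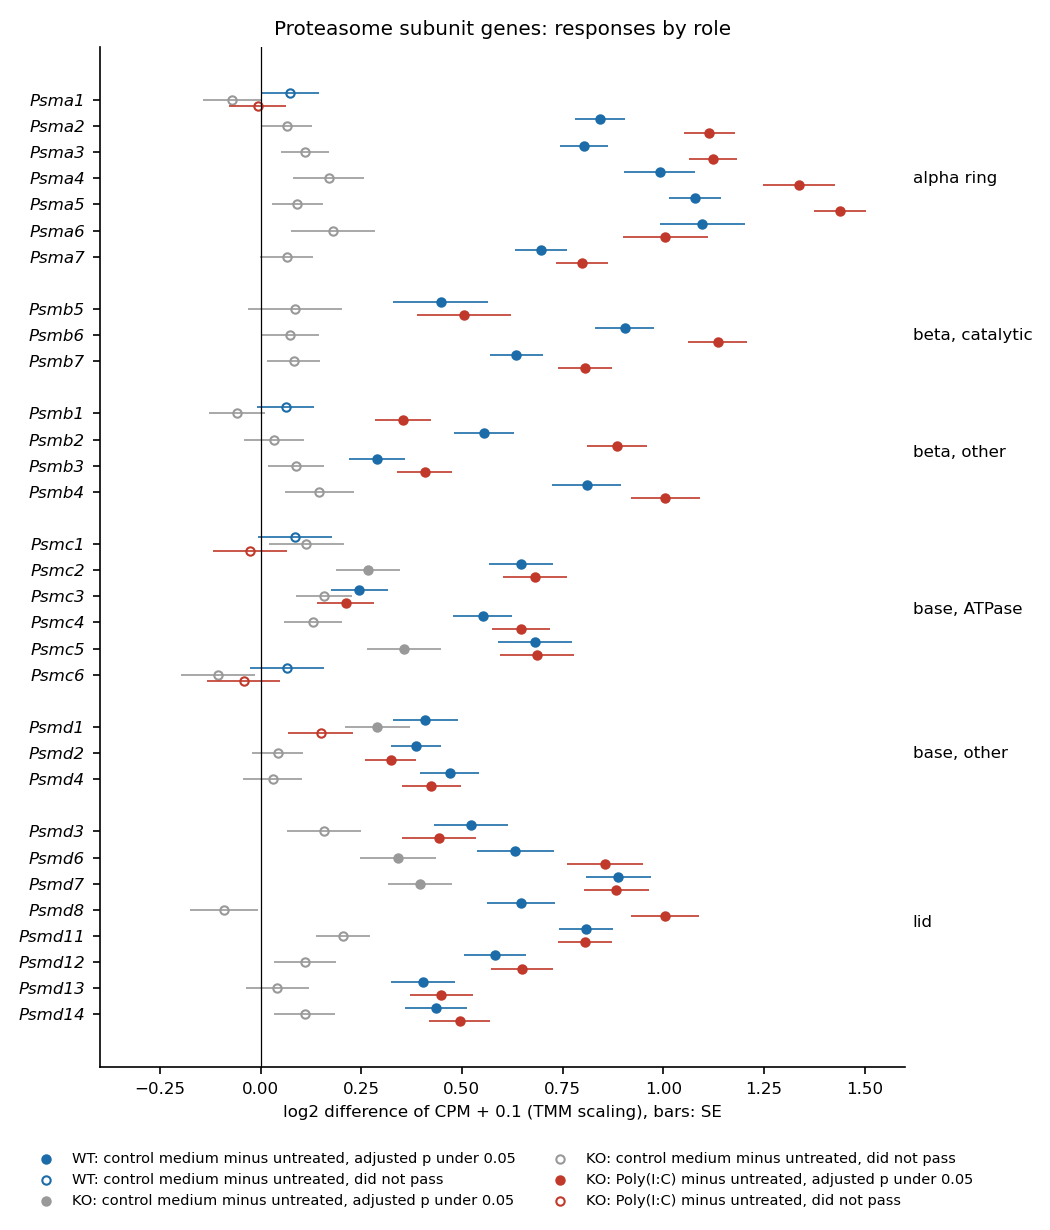
Log2 differences (horizontal axis, log2 of CPM + 0.1 with TMM scaling, bars for the SE) of the 31 subunits by role, for control medium minus untreated in WT (blue) and KO (grey) and Poly(I:C) minus untreated in KO (red), with filled points for adjusted p under 0.05. In WT 27, in KO after the control medium 5 and after Poly(I:C) 27 points are filled, all above 0 on this scale. With library totals alone the first and last counts are 9 higher and 6 lower, and 7 higher and 12 lower.

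The alpha ring held the largest differences. Psma5, an alpha subunit of the outer ring, stood at 102 and 95.5 CPM in untreated WT, 98.1 and 93.8 in untreated KO, 210 and 207 in WT control, 103 and 102 in KO control, and 258 and 262 CPM in KO Poly(I:C) libraries. The WT control and KO Poly(I:C) values lay far above the other 6 libraries, which spanned less than 10 CPM. The rise in WT cells was 2.11-fold (log2 1.08, SE 0.06, limma adjusted p = 2.86e-07), and it remained a call with totals alone (log2 0.54). Psma6, another alpha subunit, rose 2.14-fold from 152 ± 11.1 to 327 ± 45.0 CPM (SD, n = 2), with 359 CPM in one WT control library and 295 CPM in the other. Psma4, whose untreated WT libraries had 111 and 93 CPM, had 198 and 205 CPM in WT control (1.99-fold). Psma2 rose 1.79-fold, Psma3 1.75-fold and Psma7 1.62-fold, so that 6 of the 7 ring genes passed. With totals alone 5 were higher and 1, Psma1, was lower.

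Psma1, the remaining alpha subunit, did not follow its ring. It stood at 117 and 110 CPM in untreated WT, 112 and 119 in untreated KO, 123 and 116 in WT control, 108 and 111 in KO control, and 118 and 111 CPM in KO Poly(I:C) libraries. All 10 values lay between 108 and 123 CPM, and the WT groups overlapped. The WT difference was 0.07 log2 (SE 0.07, limma adjusted p = 0.383), and -0.46 with totals alone. A ratio of 2 genes within a library does not depend on the scaling. The ratio of Psma5 to Psma1 was 0.873 and 0.867 in untreated WT, 0.876 and 0.791 in untreated KO, 0.947 and 0.916 in KO control, but 1.71 and 1.79 in WT control and 2.18 and 2.36 in KO Poly(I:C) libraries. Transcripts of ring subunits that are built into the particle side by side thus changed unequally.

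Among the catalytic beta subunits all 3 rose in WT cells. Psmb6 (β1, which cuts after acidic residues) was at 131 and 129 CPM in untreated WT, 121 and 111 in untreated KO, 237 and 250 in WT control, 126 and 118 in KO control, and 262 and 247 CPM in KO Poly(I:C) libraries. The groups fell into a low and a high level with nothing between, and the WT rise was 1.87-fold (log2 0.90, SE 0.07, limma adjusted p = 2.4e-06). Psmb7 (β2, which cuts after basic residues) was at 87.9 and 87.6 CPM in untreated WT and 140 and 132 CPM in WT control, a 1.55-fold rise. Psmb5 (β5, the chymotrypsin-like site) was at 79.3 and 84.8 CPM in untreated WT, 82.5 and 72.4 in untreated KO, 117 and 107 in WT control, 88.8 and 75.7 in KO control, and 121 and 99.1 CPM in KO Poly(I:C) libraries. Its rise in WT cells was smaller, 1.36-fold (log2 0.45, SE 0.12, limma adjusted p = 0.00694), and turned to -0.09 with totals alone. The 3 active-site genes did not keep step: the ratio of Psmb6 to Psmb5 was 1.41 to 1.66 in untreated and KO control libraries, 2.03 and 2.34 in WT control, and 2.16 and 2.49 in KO Poly(I:C) libraries.

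Of the structural beta subunits Psmb4 rose 1.75-fold, Psmb2 1.47-fold and Psmb3 1.22-fold in WT cells. Psmb1 did not pass: it had 98.4 and 94.9 CPM in untreated WT and 99.8 and 102 CPM in WT control libraries (log2 0.06, SE 0.07, limma adjusted p = 0.456). Psmb3 turned to -0.24 and Psmb1 to -0.47 with totals alone, whereas Psmb4 stayed a call in the same direction.

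In the base 4 of the 6 ATPases rose in WT cells, with a median of 0.40 log2, but 0 were higher and 3 lower with totals alone. Psmc5 rose 1.60-fold, Psmc2 1.57-fold, Psmc4 1.47-fold and Psmc3 1.19-fold. Psmc1, an ATPase of the same ring, had 157 and 138 CPM in untreated WT, 136 and 141 in untreated KO, 163 and 149 in WT control, 149 and 151 in KO control, and 146 and 127 CPM in KO Poly(I:C) libraries. Psmc6 had 91.2 and 79.4 CPM in untreated WT and 95.1 and 83.4 CPM in WT control libraries. Neither passed (log2 0.08 and 0.07, limma adjusted p = 0.44 and 0.545), and their groups overlapped. The base scaffolds and the ubiquitin receptor all passed in WT cells: Psmd1 rose 1.33-fold, Psmd2, the subunit of highest level, 1.31-fold from 306 ± 3.35 to 400 ± 15.4 CPM, and Psmd4, a receptor for ubiquitin chains, 1.39-fold. With totals alone these 3 stood at -0.12, -0.15 and -0.06 log2 and none passed.

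All 8 lid genes rose in WT cells, with a median of 0.61 log2. Psmd7, the partner of the deubiquitinase in the lid, was at 79.7 and 71.8 CPM in untreated WT, 69.7 and 66.2 in untreated KO, 145 and 136 in WT control, 89.2 and 89.6 in KO control, and 132 and 119 CPM in KO Poly(I:C) libraries, a 1.85-fold rise in WT cells (log2 0.89, SE 0.08, limma adjusted p = 5.55e-06). KO control libraries lay between the untreated and the high groups here. Psmd14, the deubiquitinase itself, rose 1.35-fold from 85.4 ± 5.61 to 115 ± 4.04 CPM. Psmd11 rose 1.75-fold, Psmd8 1.56-fold, Psmd6 1.55-fold, Psmd12 1.50-fold, Psmd3 1.44-fold and Psmd13 1.32-fold. With totals alone only Psmd7 and Psmd11 of the lid stayed higher, and Psmd3, Psmd13 and Psmd14 turned to -0.01, -0.13 and -0.10.

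**Figure D2:**
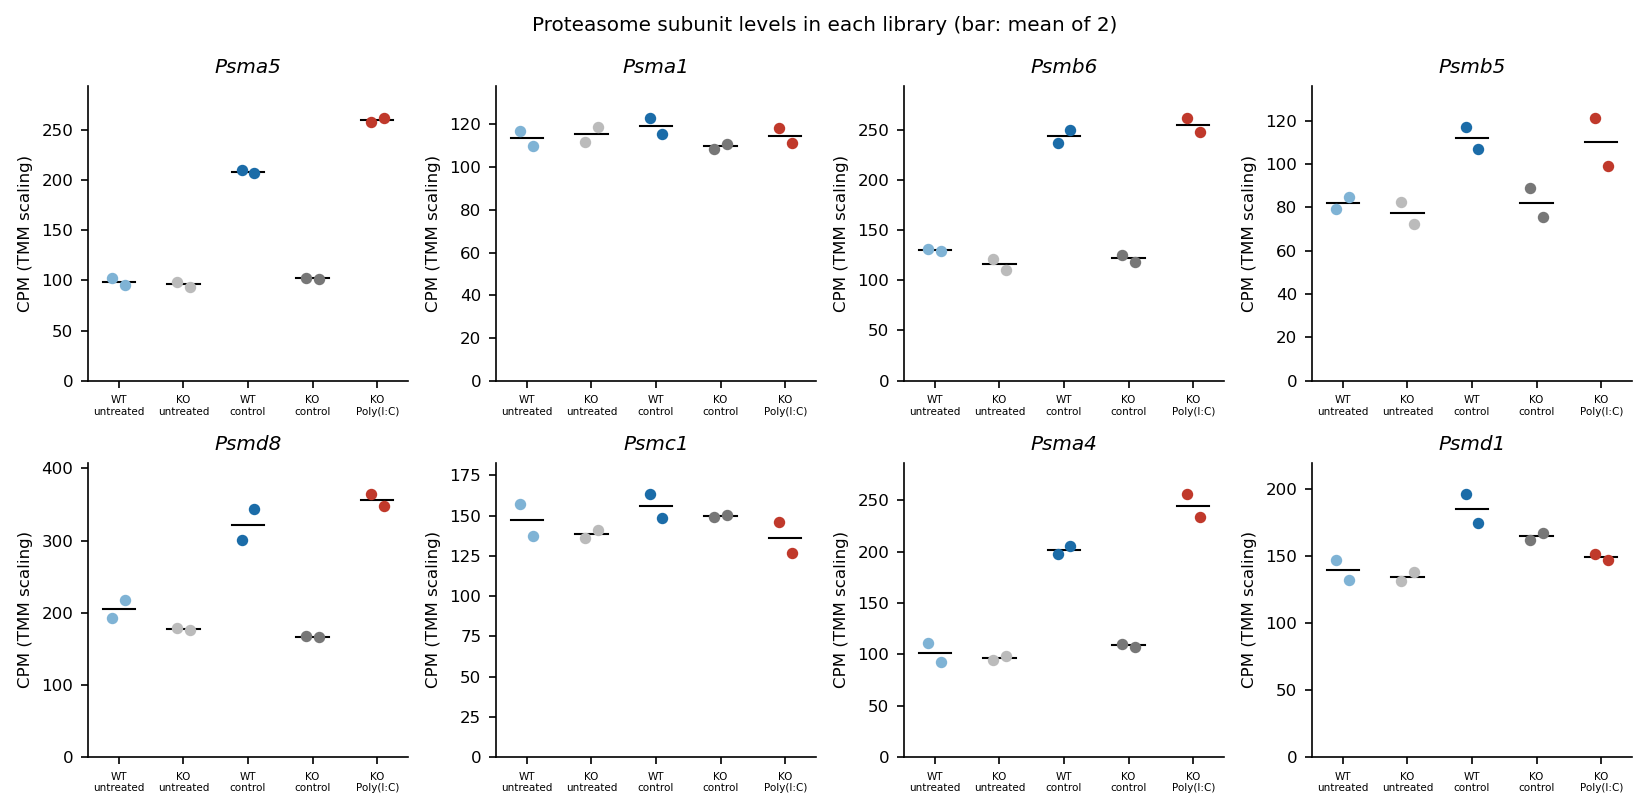
CPM with TMM scaling (vertical axes from 0, linear, each gene with its own) of 8 subunits in each of the 10 libraries by group, with a bar at the mean of 2. Psma5, Psmb6, Psmd8 and Psma4 are high in KO Poly(I:C) and WT control libraries on this scale (with totals alone Psmd8 loses its call in WT, at 0.11 log2), Psma1 lies between 108 and 123 CPM throughout, and Psmd1 is highest in WT control.

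Other cell types could be present in a marrow culture, and their markers were read beside these results. All 8 macrophage markers, among them Adgre1, Csf1r and Lyz2, were present in every library, and Cd3e, Cd8a, Ncr1, Cpa3, Mcpt8 and Fcer1a were at 0 in all 10. The macrophage markers were not all steady. In WT control against untreated, Cd14, Fcgr1, Adgre1 and Csf1r were 6.43-, 4.575-, 1.46- and 1.25-fold higher and Mertk 1.86-fold lower. With Poly(I:C) against untreated KO cells Fcgr1, Cd14 and Adgre1 were 9.16-, 4.39- and 1.28-fold higher. Cd68, Itgam and Lyz2 passed in neither. These folds and those of the other lists are on the TMM scale. With totals alone the median of all genes stood at -0.52 log2 in the WT comparison and -0.77 in the KO one. The smaller rises thus depend on the scaling, as for Adgre1 (0.54 and 0.36 log2), Csf1r (0.33 in WT) and Ngp (0.69 and 0.70). The neutrophil list, 7 of whose 8 genes reached 1 CPM, moved with the subunits: its sum was 20.6 to 37.4 CPM in untreated WT, 27 to 30.6 in untreated KO and 16.3 to 20.8 in KO control, against 85 to 114 in WT control and 100 to 106 CPM in KO Poly(I:C) libraries. Its defining gene Ly6g was at most 0.22 CPM. Camp lay at 0.162 to 3.29, Elane at 0.13 to 2.33 and Ltf at 0.908 to 3.24 CPM, so their folds come from values near the floor. In WT cells after the control medium S100a8, S100a9, Camp, Ngp and Ltf passed as higher (6.08-, 3.28-, 8.40-, 1.61- and 1.74-fold). Elane did not pass there (log2 1.04), and Mpo passed in no comparison. With Poly(I:C) against untreated KO cells S100a8, S100a9, Elane, Camp and Ngp were 5.41-, 3.67-, 4.32-, 5.075- and 1.63-fold higher, while Ltf did not pass. Against KO control S100a8 was 6.865-fold, S100a9 5.913-fold, Elane 6.96-fold, Camp 3.92-fold, Ngp 3.31-fold and Ltf 2.84-fold higher. Ngp and Ltf were themselves lower in KO control than in untreated KO cells (log2 -1.02 and -0.94). The stromal list, 4 of whose 6 genes reached 1 CPM, summed to 3.66 to 6.32 CPM in untreated and KO control libraries, 13 to 16.4 in WT control and 7.75 to 9.87 CPM in KO Poly(I:C) libraries, with Pdgfra and Dcn at 0.14 and 0.478 CPM at most. Its genes did not rise together. Pdgfrb, at 0.486 to 10.2 CPM, was 14.47-fold higher in WT control and 7.64-fold with Poly(I:C), each against untreated. Dcn rose too (3.50- and 3.56-fold), but Col1a1, Col1a2 and Col3a1 passed in no comparison. The B cell gene Cd79b was at 36.8 to 52.9 CPM in untreated and KO control libraries and 7.48 to 11.4 CPM in the other 4. Of the erythroid and platelet list 2 of 4 genes reached 1 CPM, Pf4 and Ppbp, with Hbb-bs and Hba-a1 at 0.0839 and 0.463 CPM at most. Its sum was 380 to 522 CPM in untreated WT, 383 to 463 in untreated KO, 312 to 398 in WT control, 218 to 237 in KO control and 385 to 418 CPM in KO Poly(I:C) libraries. Pf4 and Ppbp were lower in KO than in WT cells after the control medium (log2 -0.57 and -1.12) and higher with Poly(I:C) than in KO control (0.80 and 0.99), but neither passed there with totals alone. Their part in the results was not tested. In bulk RNA, fewer cells of a type and less RNA per cell cannot be told apart.

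In KO cells few subunits passed after the control medium. There 5 of the 31 subunits were higher than in untreated KO cells, 0 were lower and 26 did not pass, where 10.9% of all genes were called higher and 9.08% lower. The median difference was 0.11 log2 over the subunits and 0.00 over all genes. The 5 were Psmd7 (log2 0.40, limma adjusted p = 0.00768), Psmc5 (0.36, 0.0233), Psmd6 (0.34, 0.0307), Psmd1 (0.29, 0.0312) and Psmc2 (0.27, 0.0426), all in the regulatory particle. The count rests on single libraries: it was 1 without untreated KO replicate 1, 0 without untreated KO replicate 2, 1 without KO control replicate 1 and 0 without KO control replicate 2. It was 1 with totals alone, 3 with the deposited scaling and 2 with no filter. None of the 14 core-particle genes passed, although 12 of the 14 estimates were above 0. The quartiles of all genes were -0.22 and 0.22, and this count of signs is only a description. The summed level was 3083 and 3056 CPM in untreated KO and 3317 and 3278 CPM in KO control libraries, whose share of all reads is given above.

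The difference between the responses was tested itself, as the interaction of label and medium. It was below 0 (a smaller response in KO cells) and passed for 21 of the 31 subunits, and above 0 for none, where 23.7% of all genes passed below 0 and 22.0% above. The median was -0.42 log2 over the subunits and 0.04 over all genes. Psma5 had -0.99 (SE 0.09, limma adjusted p = 1.77e-05), Psma6 -0.92, Psmb6 -0.83, Psma4 -0.82 and Psmd8 -0.74. The 10 that did not pass were Psma1, Psmb1, Psmc1 and Psmc6, which did not pass in WT cells either, and Psmb3, Psmb5, Psmc3, Psmc5, Psmd1 and Psmd6. Psmb5 had -0.36 (SE 0.17, limma adjusted p = 0.102), so its rise in WT cells is not shown to differ from its difference of 0.09 in KO cells. With totals alone the group direction was lost here too, with 6 above 0, 4 below 0 and a median of 0.07 (all genes 0.52, with 6518 above 0 and 1695 below instead of 2904 and 3121). With the deposited scaling the all-gene split was 2060 above and 3819 below.

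Between the labels, no subunit passed the test in untreated cells. Of the 31, 0 were higher and 0 lower in KO than in WT cells (limma), and 3 had an unadjusted p under 0.05. Such a p was found for 1146 of all 13171 genes, a similar share, so the 3 are read as no result about the subunits. Of all genes 0.0835% were higher and 0.0835% lower. The subunit median was -0.07 log2, with the lowest value in Psmd3 (-0.24, limma adjusted p = 0.507), at 79.5 and 77.7 CPM in WT and 71.3 and 61.7 CPM in KO libraries. Psmd8 (-0.21) and Psmb6 (-0.17) were the others with an unadjusted p under 0.05, and 29 of the 31 estimates were below 0. Over all genes the median was -0.01 log2 with quartiles of -0.13 and 0.11. The estimates share the scaling of each library, so the count of signs is only a description. A p that misses the threshold does not show that the levels were alike.

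After the control medium the labels stood apart. In KO cells 25 subunits were lower than in WT cells, 0 were higher and 6 did not pass, where 30.2% of all genes were called lower and 30.9% higher. The median was -0.50 log2 over the subunits and 0.03 over all genes. Psma5 was 2.04-fold lower (log2 -1.03, SE 0.06, limma adjusted p = 4.66e-07), Psmb6 2.00-fold, Psmd8 1.93-fold and Psma6 1.91-fold lower. The 6 that did not pass were Psma1, Psmb1, Psmc1, Psmc3, Psmc6 and Psmd1. With totals alone 10 were lower and 6 higher with a median of -0.01, while the median of all genes was 0.50 (7672 higher and 2077 lower instead of 4072 and 3975). With the deposited scaling 30 were lower and 0 higher (all genes 2965 higher and 4934 lower). The subunits' median less that of all genes was -0.53 with the TMM factors, -0.52 with totals alone, -0.54 with the deposited scaling and -0.52 in the rlog table.

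**Figure D3:**
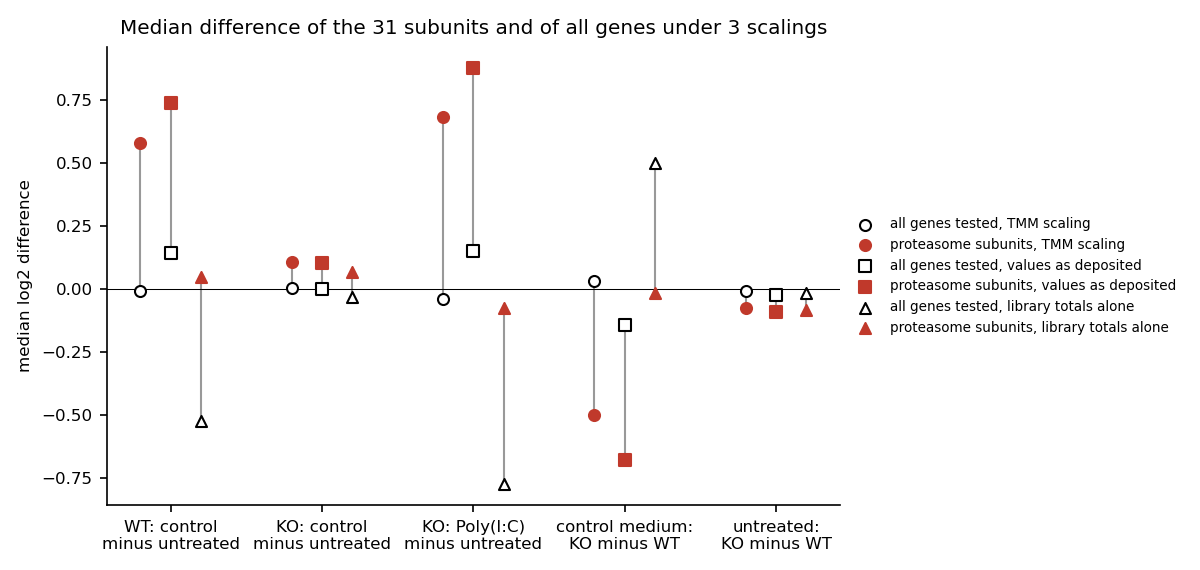
Median log2 difference (vertical axis) of the 31 subunits (red) and of all 13171 genes tested (open) in 5 comparisons under 3 scalings: TMM (circles), values as deposited (squares) and library totals alone (triangles). The absolute medians move with the scaling, in WT cells from 0.58 to 0.74 and 0.05 for the subunits, while the distance to all genes stays at 0.59, 0.59 and 0.57. It stays so by construction, because a library factor shifts all genes nearly alike.

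In KO cells Poly(I:C) was accompanied by higher subunit levels relative to the typical gene. Against untreated KO cells 27 of the 31 subunits were higher, 0 lower and 4 did not pass, where 34.5% of all genes were called higher and 37.6% lower. The median was 0.68 log2 over the subunits and -0.04 over all genes, whose quartiles were -0.80 and 0.66. Against KO control cells 26 were higher, 0 lower and 5 did not pass, with medians of 0.49 and -0.06, where 32.5% of all genes were higher and 36.9% lower. Both comparisons share the Poly(I:C) libraries. With totals alone the direction of the group was lost in both: 7 higher and 12 lower against untreated cells (all genes 2218 and 8703 instead of 4544 and 4955), and 6 higher and 15 lower against KO control cells (all genes 2081 and 8882 instead of 4279 and 4860). The medians of all genes then stood at -0.77 and -0.76. With the deposited scaling the all-gene counts were 5439 higher and 3998 lower, and 5204 and 3759. The subunits' median less that of all genes against untreated cells was 0.72, 0.70 with totals alone, 0.73 with the deposited scaling and 0.71 in the rlog table.

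The core again held the largest differences. Against untreated KO cells Psma5 was 2.71-fold higher (log2 1.44, SE 0.06, limma adjusted p = 2.19e-08), Psma4 2.53-fold, Psma3 2.18-fold, Psma2 2.17-fold and Psma6 2.01-fold, with Psma1 at -0.01. With totals alone 4 alpha genes stayed higher (Psma2 to Psma5) and 1 was lower. Psmb6 was 2.20-fold higher (log2 1.14), Psmb7 1.75-fold (0.81) and Psmb5 1.42-fold (0.51, SE 0.12, limma adjusted p = 0.00299), the order of the estimates in WT cells after the control medium too. All 4 structural beta genes passed. Psmb1, which did not pass in the WT comparison, had 95.8 and 99.1 CPM in untreated KO, 91.7 and 95.4 in KO control, and 131 and 119 CPM in KO Poly(I:C) libraries, 1.28-fold above untreated (log2 0.35, SE 0.07, limma adjusted p = 0.00112). With totals alone Psmb1 turned to -0.40 and Psmb5 to -0.25.

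In the regulatory particle the lid passed in 8 of 8 genes, with a median of 0.73 log2, but with totals alone 1 was higher and 3 lower. Psmd8, a lid subunit, led with 178 and 177 CPM in untreated KO, 168 and 166 in KO control, and 364 and 348 CPM in KO Poly(I:C) libraries (2.01-fold, log2 1.00, SE 0.08, limma adjusted p = 2.17e-06). Its WT libraries had 193 and 218 CPM untreated and 300 and 344 CPM after the control medium. Of the ATPases Psmc5, Psmc2, Psmc4 and Psmc3 passed, 1.16- to 1.61-fold, and Psmc1 and Psmc6 did not (log2 -0.03 and -0.04), whereas 0 ATPases were higher and 3 lower with totals alone. Psmd2 and Psmd4 were 1.25- and 1.34-fold higher, but lower with totals alone (-0.43 and -0.33 log2). Psmd1, the large base scaffold, had 132 and 138 CPM in untreated KO, 162 and 167 in KO control, and 152 and 147 CPM in KO Poly(I:C) libraries. It was thus highest among KO groups after the control medium, and neither Poly(I:C) difference passed (0.15 and -0.14, limma adjusted p = 0.12 and 0.145).

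The difference between control medium and untreated in WT cells and that between Poly(I:C) and untreated in KO cells share no library. The same 26 subunits were higher in both, 3 were called in neither (Psma1, Psmc1 and Psmc6), Psmb1 only passed with Poly(I:C) and Psmd1 only in WT cells after the control medium. Of all genes 33.1% were higher in the WT comparison and 34.5% in the KO one, so at most 33.1% were higher in both. Whether Psmb1 or Psmd1 differed between the 2 responses was not tested. Over the 31 genes the 2 sets of log2 differences had a Pearson r of 0.923 and a Spearman rho of 0.923, a description over genes that share the scaling of each library. The correlation over all genes was not computed, so these values are not read as particular to the subunits. For 20 of the 31 the estimate was larger with Poly(I:C), a count that was not made over all genes. By role, the medians in WT cells after the control medium and in KO cells after Poly(I:C) were 0.84 and 1.11 log2 for the alpha ring, 0.64 and 0.81 for the catalytic beta subunits, 0.42 and 0.65 for the other beta subunits, 0.40 and 0.43 for the ATPases, 0.41 and 0.32 for the other base subunits, and 0.61 and 0.73 for the lid. With totals alone the medians were 0.31 and 0.36 for the alpha ring and 0.10 and 0.05 for the catalytic beta subunits, but -0.11 and -0.11 for the other beta subunits, -0.13 and -0.33 for the ATPases, -0.12 and -0.43 for the other base subunits, and 0.07 and -0.03 for the lid.

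The 3 inducible catalytic subunits had larger fold changes than any standing subunit, and they kept their calls with totals alone. Psmb8 (β5i) had 138 and 151 CPM in untreated WT, 122 and 121 in untreated KO, 366 and 422 in WT control, 112 and 114 in KO control, and 536 and 524 CPM in KO Poly(I:C) libraries, a 2.72-fold rise in WT cells (limma adjusted p = 1.82e-07) and 4.35-fold with Poly(I:C) (7.75e-09). Psmb10 (β2i) had 40 and 48.4 CPM in untreated WT, 37.6 and 31.3 in untreated KO, 276 and 372 in WT control, 47.8 and 49.3 in KO control, and 476 and 462 CPM in KO Poly(I:C) libraries, a 7.26-fold and a 13.64-fold rise. Psmb9 (β1i) rose 3.45-fold from 41.3 and 49.1 CPM in WT cells, and 5.62-fold with Poly(I:C). In all 3, these WT control libraries and those of KO cells with Poly(I:C) were apart from all others. Of the inducible subunits Psmb10 alone was called in KO cells after the control medium (log2 0.50, limma adjusted p = 0.0346). Psmb11, the thymus subunit, was not tested at its low level, and Psma8, the testis ring subunit, was at 1.47 CPM or less in every library.

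Because each inducible subunit replaces 1 standing subunit, the 3 ratios were read within each library, where scaling cancels. Psmb8 over Psmb5 was 1.74 and 1.78 in untreated WT, 1.48 and 1.67 in untreated KO, 3.12 and 3.95 in WT control, 1.26 and 1.51 in KO control, and 4.41 and 5.29 in KO Poly(I:C) libraries. Psmb9 over Psmb6 was 0.315 and 0.381 in untreated WT, 0.365 and 0.381 in untreated KO, 0.603 and 0.678 in WT control, 0.309 and 0.357 in KO control, and 0.938 and 0.972 in KO Poly(I:C) libraries. The third ratio, Psmb10 over Psmb7, was 0.456 and 0.552 in untreated WT, 0.443 and 0.367 in untreated KO, 1.96 and 2.81 in WT control, 0.518 and 0.561 in KO control, and 3.12 and 3.18 in KO Poly(I:C) libraries. As differences of log2 ratios these were 1.00, 0.88 and 2.23 in WT cells after the control medium and 1.62, 1.36 and 2.97 in KO cells after Poly(I:C), against -0.19, -0.17 and 0.42 in KO cells after the control medium. The groups did not overlap in the first 2 of these comparisons for any ratio, nor in the last for Psmb9 over Psmb6 and Psmb10 over Psmb7, whereas they did there for Psmb8 over Psmb5. Yet 2 against 2 libraries cannot give an exact two-sided permutation p under 0.333. The ratios compare read totals of genes of unequal length, so only their changes are read.

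**Figure D4:**
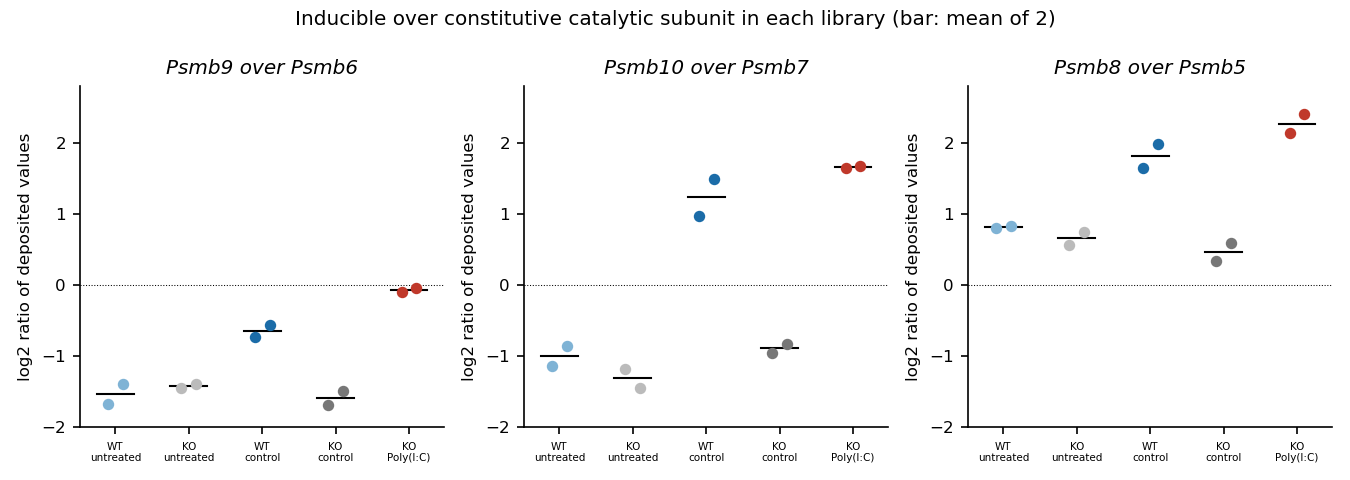
Log2 ratio of the deposited values (vertical axes) of each inducible catalytic subunit over the standing subunit it replaces, in each of the 10 libraries by group, with a bar at the mean of 2 and a dotted line where the values are equal. The KO Poly(I:C) and WT control libraries lie above the other 6 in all 3 pairs.

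All 5 genes of the alternative caps and their inhibitor rose in WT cells after the control medium and in KO cells after Poly(I:C), of which 2 stayed higher and 0 lower in each with totals alone. Psme1 and Psme2, the PA28 activator subunits, led. Psme2 had 141 and 140 CPM in untreated WT, 119 and 131 in untreated KO, 530 and 573 in WT control, 137 and 141 in KO control, and 703 and 672 CPM in KO Poly(I:C) libraries (3.92-fold and 5.49-fold). Psme1 rose 2.82-fold in WT cells and 4.50-fold with Poly(I:C). In the same 2 comparisons 2 of the 8 measured assembly chaperones were higher and 1 and 3 lower, or 4 and 5 lower with totals alone. Over all genes 33.1% and 34.5% were higher and 32.8% and 37.6% lower, so no share of the chaperones was above that of all genes and the counts are read as no result about them. The higher ones were Pomp, which matures the core (1.74-fold and 2.08-fold), and Psmd10, a chaperone of the base (3.45-fold and 3.33-fold). Psmg1, a chaperone of the alpha ring, was lower (log2 -0.64 and -0.67), so the assembly genes did not move as one. Of the 12 associated receptors, deubiquitinases and shuttles 6 were higher and 3 lower in WT cells, and 6 and 4 with Poly(I:C), but 0 higher and 7 and 9 lower with totals alone. Against the same shares of all genes, the lower counts are read as no result about this list, nor are the higher ones, which were lost with totals alone. The genes higher on the first scale included Adrm1, a ubiquitin receptor of the base (1.78-fold and 1.84-fold), and Sem1, the small lid subunit (1.35-fold and 1.72-fold, but -0.10 and 0.02 log2 with totals alone).

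The list around Nfe2l1 holds 13 genes, among them the enzymes that release and process it and its small Maf partners. Of these 10 were higher and 2 lower in WT cells after the control medium, and 9 and 2 in KO cells after Poly(I:C), against 5 and 4, and 4 and 8, with totals alone. The shares of all genes on the first scale were 33.1% higher and 32.8% lower, and 34.5% and 37.6%. Nfe2l1 itself was among the lower ones: 357 and 379 CPM in untreated WT, 330 and 326 in untreated KO, 321 and 312 in WT control, 284 and 262 in KO control, and 227 and 225 CPM in KO Poly(I:C) libraries. The differences were -0.22 log2 (limma adjusted p = 0.0159) in WT cells and -0.54 (4.26e-05) with Poly(I:C), and -0.27 (0.0206) in KO cells after the control medium. Its activity is set largely on the protein, which was not measured. Nfe2l2, its relative in the oxidative stress response, rose 1.80-fold and 1.69-fold, the latter 0.00 log2 with totals alone. Ubb, a polyubiquitin gene, rose 2.10-fold and 2.03-fold.

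Reads shared with other genes were checked in part for the subunits. Pseudogenes carrying a subunit's name were found for Psmb5, Psmb6 and Psmb7 only. They reached a deposited value of at most 3, against 2232 for the lowest value of these subunits. Copies under other names were not searched. The spans of some genes on the opposite strand, introns included, reach over exon sequence of subunits. These were Slc39a13 with Psmc3 (at most 2702 deposited units), Nek6 with Psmb7 (1469), Sirt3 with Psmd13 (240), 3110056K07Rik with Psma3 (97) and Htr2b with Psmd1 (69). Whether exons of both genes overlap was not checked. The kit keeps the strand, but whether the counting used it is not stated, so the values of these 5 subunits may be less certain.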

How the data were processed

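Stranded mRNA libraries (TruSeq, per the labels' protocols) of mouse bone marrow derived macrophages were analysed. Per the submitters' processing notes the tools were DESeq2, RSEM 1.2.12, STAR 2.4.0d and Trim Galore 0.2.8, with no roles stated. No source used here gives the genome build. The authors deposited a table of whole numbers per gene, which is a signal and not raw counts: in each library the values lie on the grid of reads times 1 factor (0.687 to 1.9025), rounded, and the 75th percentile over all rows is 25. They also deposited rlog values on a log2 scale, used as an alternative. Because the unit is a scaled signal, no count model was run.

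Values were divided by library total times TMM factor (own code, trimming 30% on M and 5% on A) to give CPM. The filter asked for a value of 10 or more in 2 or more libraries and left 13171 of 20687 genes above 0. limma 3.58.1 in R 4.3.3, with a trend, was fitted to log2(CPM + 0.1) of all 10 libraries with 1 coefficient per group (5 residual and 4.82 prior degrees of freedom). The 7 comparisons were adjusted by Benjamini-Hochberg over all genes, and a gene was called at an adjusted p under 0.05. The fit was tested on simulated data. Few genes were changed there, about as many up as down, so the simulation could not test the choice of scaling. Folds on this scale understate the change of low genes. Replicates correlated at 0.992 to 0.994 over genes. Symbols came from GENCODE M21 (44585 of 45318 identifiers matched), promoters from RefSeq.

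Groups came from the sample titles. All 31 subunits are named, and any gene of the pathway lists could be named with its values. Some listed genes are not reported here. The members and lists were chosen with earlier results of these data known. Alternatives were other scalings, pseudocount 1, no filter, the rlog table, the compared groups only, a replicate block and each library left out. Rounding leaves the depth behind a value known only through the recovered reads, so no counting intervals are given.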

Additional observations from a re-analysis of the deposited data

Results flagged for a closer look

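The response to the control medium differed between the labels, by limma's interaction test at an adjusted p under 0.05 over all genes, for 32 named genes. Each value is the log2 response in KO cells minus that in WT cells. In the alpha ring it was -0.78 for Psma2, -0.69 for Psma3, -0.82 for Psma4, -0.99 for Psma5, -0.92 for Psma6 and -0.63 for Psma7. Among the beta subunits it was -0.83 for Psmb6, -0.55 for Psmb7, -0.52 for Psmb2 and -0.66 for Psmb4. In the base it was -0.38 for Psmc2, -0.42 for Psmc4, -0.34 for Psmd2 and -0.44 for Psmd4. In the lid it was -0.37 for Psmd3, -0.49 for Psmd7, -0.74 for Psmd8, -0.60 for Psmd11, -0.47 for Psmd12, -0.36 for Psmd13 and -0.33 for Psmd14.

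Genes of the pathway lists had wider values. The interaction was -1.55 for Psmb8, -1.88 for Psmb9, -2.36 for Psmb10, -1.49 for Psme1 and -1.81 for Psme2. It was -0.58 for Pomp, -1.52 for Psmd10 and, in the other direction, 0.61 for Psmg1. It was -0.45 for Sem1, -0.92 for Nfe2l2 and -1.04 for Ubb. Among named genes that passed with the TMM factors or with library totals alone, the sign of the interaction changed between these scalings for 16. Some of them passed only with totals alone, as listed with the other scaling values. Sign changes of genes that passed in neither are not counted.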

How the results depend on the processing

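The limits are the scaling, the 2 libraries per group and the unknown origin of the deposited factors. Of 315 gene results (45 named genes in 7 comparisons), no called value changed sign with the deposited scaling, pseudocount 1, no filter, the rlog table, a fit of the compared groups only, the replicate block or any library left out. With library totals alone 77 values that were called there or with the TMM factors changed sign. That alternative drops the factor that sets the typical gene level. The subunit counts (higher, lower) then were 6 and 10 for KO minus WT after the control medium, 9 and 6 for the control medium in WT, 1 and 0 for it in KO, 6 and 15 for Poly(I:C) minus control medium, 7 and 12 for Poly(I:C) minus untreated, and 6 and 4 for the interaction. The count higher in KO after the control medium was 3 with the deposited scaling and 2 with no filter. Leaving out 1 library at a time (the lone library of a group is assumed to vary like the others) gave 25 to 27 subunits higher after the control medium in WT, 0 to 6 in KO, 23 to 26 and 26 to 27 for Poly(I:C) against control medium and untreated, 24 to 27 lower in KO after the control medium, 17 to 22 below 0 in the interaction, and 0 to 0 elsewhere. Whether equal replicate numbers mark shared animals or days is not stated. Their deviations correlated over genes at 0.315 between the WT groups and 0.171 to 0.306 between the KO groups, but at 0.0128 to 0.111 across the labels, so the numbers were not taken as pairs over the whole design. A pairing within each label was not fitted. The replicate block uses a single term shared by both labels, so it does not address such a pairing. With the replicate block the counts were 27 and 6 higher after the control medium in WT and KO, 26 and 27 for Poly(I:C), 26 lower in KO after the control medium and 24 below 0 in the interaction, with 8 gene calls gained and 0 lost. The gains were the interaction of Psmb5, Psmc5, Psmd6 and Adrm1, Psmc6 lower in KO and Psmg2 lower in WT after the control medium, and Psmd11 and Adrm1 higher after it in KO. Values that changed sign with library totals alone and were called there or with the TMM factors, in log2, follow. For KO minus WT after the control medium, the values were Psma1 0.36, Psmb5 0.0373, Psmb1 0.38, Psmb3 0.17, Psmc1 0.43, Psmc3 0.38, Psmc5 0.0768, Psmc6 0.27, Psmd1 0.32, Psmd2 0.10, Psmd6 0.0836, Psmd13 0.10, Psmd14 0.0397, Nfe2l1 0.27. For control medium minus untreated in WT, the values were Psma1 -0.46, Psmb5 -0.0857, Psmb1 -0.47, Psmb3 -0.24, Psmc1 -0.45, Psmc3 -0.29, Psmc6 -0.47, Psmd1 -0.12, Psmd2 -0.15, Psmd4 -0.0638, Psmd3 -0.01, Psmd13 -0.13, Psmd14 -0.10, Sem1 -0.10. For Poly(I:C) minus control medium in KO, the values were Psma1 -0.65, Psmb5 -0.29, Psmb1 -0.30, Psmb3 -0.40, Psmc2 -0.30, Psmc3 -0.66, Psmc4 -0.20, Psmc5 -0.38, Psmc6 -0.65, Psmd2 -0.43, Psmd4 -0.32, Psmd3 -0.43, Psmd6 -0.20, Psmd7 -0.23, Psmd11 -0.12, Psmd12 -0.18, Psmd13 -0.31, Psmd14 -0.33, Adrm1 -0.20. For Poly(I:C) minus untreated in KO, the values were Psmb5 -0.25, Psmb1 -0.40, Psmb3 -0.35, Psmc2 -0.0726, Psmc3 -0.54, Psmc4 -0.11, Psmc5 -0.0673, Psmd1 -0.61, Psmd2 -0.43, Psmd4 -0.33, Psmd3 -0.31, Psmd12 -0.10, Psmd13 -0.31, Psmd14 -0.26. For the interaction, the values were Psma1 0.35, Psmb1 0.37, Psmb3 0.29, Psmc2 0.11, Psmc3 0.41, Psmc4 0.0724, Psmd1 0.37, Psmd2 0.15, Psmd4 0.0542, Psmd3 0.13, Psmd7 0.0014, Psmd12 0.0221, Psmd13 0.13, Psmd14 0.17, Nfe2l1 0.44, Sem1 0.0414.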
